A study of Caenorhabditis elegans with 9 samples.

Results

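A cassette exon is either spliced into the mRNA or skipped, and when its length is not a multiple of 3 the choice also moves the reading frame of everything downstream. The exons described here are the frame-shifting cassette exons longer than 60 nt of *Caenorhabditis elegans*, chosen by length alone: more than 60 nt, and not divisible by 3. There were 288 such exons among the 786 cassette exons deposited for the comparison of *smg-1* with wild-type. Of these, 151 leave a remainder of 1 nt after division by 3 and 137 a remainder of 2 nt. The groups were wild-type N2 worms, *smg-1* knockout worms (strain TR1331) and *smg-2* knockout worms (strain CB4043), with 3 biological replicates each of poly(A) RNA from whole animals at the L4 stage. Whole-animal RNA averages over tissues, so a change of an exon within 1 tissue and a change in the amount of that tissue cannot be told apart. The tables hold junction usage only and no gene-level values, so cell type markers could not be checked here. Each mutant is 1 strain, and the wild-type libraries are shared by both comparisons.

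Nonsense-mediated mRNA decay (NMD) destroys mRNAs on which translation ends too early. *smg-1* encodes a kinase, and its substrate *smg-2* is the worm UPF1 helicase. Both are needed for NMD, and worms without them are viable. An exon whose inclusion brings in an early stop codon is called a poison exon, and one whose skipping does so an essential exon. In the first case the included isoform, and in the second the skipped isoform, is the NMD target. A stop codon is commonly recognised as early when an exon junction complex, the protein mark that splicing leaves near each exon junction, lies far enough downstream of it. In nematodes a long 3′ UTR is a known alternative cue.

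The measure throughout is percent spliced in (PSI), the percentage of an exon's junction usage in a library that includes the exon. A cassette exon has 2 inclusion junctions and 1 skipping junction, and all were counted as the authors deposited them. Mutant mean PSI of the exons in the table lay between 5.07% and 94.98% in *smg-1*, whereas wild-type means ran from 0% to 100%. An exon with a wild-type PSI under 5% (39 exons) or over 95% (83 exons) could therefore appear only if it had moved inward. The main counts of direction are thus given again for the exons with a wild-type PSI of 5-95%. Within that range an exon near either end still had little room to move further outward.

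Sequences are shown for 15 exons from WBcel235, because they let the stop codon of each isoform be read directly. Each line is spliced mRNA from 30 nt before the junction through the first in-frame stop codon, which is in capitals. The first set holds included isoforms of exons that were rarely used in wild-type, so the sequence after the first 30 bases belongs to the cassette exon. Each exon is given by its chromosome, start and end. The exons of *rsp-7*, *W01B6.3*, *rps-22*, *melo-1* and *vab-23* are among the 12 that rose most in *smg-1*, and *tiar-1* is added as a second RNA-binding protein gene.
*rsp-7* (+ strand, II:10659787-10659862): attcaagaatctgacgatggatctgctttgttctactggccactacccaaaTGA
*W01B6.3* (- strand, IV:10071401-10071473): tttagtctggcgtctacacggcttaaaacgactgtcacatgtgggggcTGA
*rps-22* (+ strand, III:1950821-1950996): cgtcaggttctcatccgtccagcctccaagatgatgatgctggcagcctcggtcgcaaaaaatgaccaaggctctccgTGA
*melo-1* (+ strand, IV:14787506-14787732): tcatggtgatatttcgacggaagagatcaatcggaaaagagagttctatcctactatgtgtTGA
*vab-23* (- strand, II:11900952-11901064): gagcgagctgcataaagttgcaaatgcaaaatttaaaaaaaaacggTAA
*tiar-1* (- strand, II:5714293-5714356): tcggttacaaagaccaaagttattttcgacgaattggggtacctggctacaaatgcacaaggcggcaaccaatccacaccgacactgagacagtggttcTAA
In 5 of the 6 the stop codon lies within the cassette exon, and it begins between 16 nt (*vab-23*) and 48 nt (*rps-22*) after the exon starts. In *tiar-1* it begins after 69 nt, just past the end of a 64-nt exon.

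The second set holds skipped isoforms of exons that were mostly included in wild-type and are among the 12 that fell most. Here the bases after the first 30 belong to the exons after the cassette, read in the shifted frame.
*ilkp-1* (+ strand, II:11051338-11051444): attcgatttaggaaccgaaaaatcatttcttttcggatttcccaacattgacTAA
*sfa-1* (- strand, IV:17108480-17108552): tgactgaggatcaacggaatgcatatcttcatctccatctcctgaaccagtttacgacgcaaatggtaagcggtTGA
*fubl-3* (+ strand, X:17434917-17434986): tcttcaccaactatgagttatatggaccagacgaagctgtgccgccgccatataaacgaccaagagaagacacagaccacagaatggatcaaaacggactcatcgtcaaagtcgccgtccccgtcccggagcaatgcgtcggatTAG
*pes-4* (- strand, III:1218717-1218792): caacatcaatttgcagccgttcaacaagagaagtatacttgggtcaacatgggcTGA
*etr-1* (+ strand, II:166071-166150): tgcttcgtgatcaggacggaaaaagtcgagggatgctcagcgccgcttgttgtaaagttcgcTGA
*asd-1* (+ strand, III:4198869-4199115): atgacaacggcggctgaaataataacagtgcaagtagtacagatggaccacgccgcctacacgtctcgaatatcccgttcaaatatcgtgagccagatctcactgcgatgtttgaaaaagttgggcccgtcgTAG
The shifted frame ran into a stop codon between 22 nt (*ilkp-1*) and 114 nt (*fubl-3*) past the junction.

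The third set holds included isoforms of exons that lie next to the last exon and were not called as changed. They too carry a stop codon in or just after the exon, and at most 1 junction follows it. Whether this bears on their change was not tested.
*zer-1* (- strand, III:882106-882212): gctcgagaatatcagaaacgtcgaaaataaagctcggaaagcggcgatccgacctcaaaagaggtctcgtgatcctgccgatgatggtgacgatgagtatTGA
*mbk-2* (+ strand, IV:13034453-13034528): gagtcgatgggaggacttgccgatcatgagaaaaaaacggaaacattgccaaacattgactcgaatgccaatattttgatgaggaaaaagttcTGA
*dnj-10* (+ strand, III:8633062-8633176): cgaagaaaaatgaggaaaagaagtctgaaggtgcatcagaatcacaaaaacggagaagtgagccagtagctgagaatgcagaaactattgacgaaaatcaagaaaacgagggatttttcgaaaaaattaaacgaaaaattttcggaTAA
The stop of the *dnj-10* isoform begins after 116 nt, beyond the end of its exon, so it sits in the last exon.

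In *smg-1* many of these exons shifted, and more of them fell than rose. A change was called where the mean PSI moved by more than 10 percentage points with an adjusted p under 0.05 (limma on the logit of PSI, Benjamini-Hochberg over all exons). Of the 287 exons tested, 59 were called, against 12.8% of all 782 cassette exons tested. Those that rose numbered 21, where 6.27% of all exons rose, and those that fell numbered 38, where 6.52% of all exons fell. The median change was -4.20 points, against -0.42 points over all exons. In all 59 called exons the 3 wild-type and the 3 *smg-1* libraries did not overlap, as was the case for 163 of the 287 exons tested and for 35.3% of all exons. With inclusion reads weighted by 0.5, since 2 junctions report it, 15 rose and 63 fell. Restricted to the 165 exons with a wild-type PSI of 5-95%, 27 were called, 5 that rose and 22 that fell. Over all cassette exons in that range, 40 of 576 were called, 12 that rose and 28 that fell.

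The exons called in *smg-1* fell from high levels and rose from low ones, which entry to the table fixed in part. Of the 21 that rose only 5 began at a wild-type PSI of 5-95%, and of the 38 that fell 22 did. The remaining called exons started beyond that range, from which the table holds inward moves alone. Exons that fell had a median wild-type PSI of 93.5% and a median *smg-1* PSI of 63.6%. Those that rose went from a median of 2.58% to 23.2%. The only called exon that rose from a level above 11% in wild-type was the 67-nt exon of *tos-1*, whose name stands for target of splicing. Its PSI was 74.5%, 76.6% and 77.2% in the wild-type libraries and 88.5%, 90.7% and 90.5% in *smg-1* (adjusted p = 0.0133). Without *smg-1* replicate 2 its adjusted p was 0.0542.

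The steepest rises brought exons that were almost unused in wild-type to a large share of the mRNA. *rsp-7*, which encodes an SR-family splicing factor, included its 76-nt exon at 7.02%, 7.94% and 10% in wild-type and at 74.6%, 68.4% and 79.2% in *smg-1*. That is a rise of 65.7 points (adjusted p = 0.000510). The 73-nt exon of *W01B6.3*, a predicted transporter of the major facilitator superfamily, rose further, by 73.8 points (adjusted p = 0.00207). It had a median of 14 junction reads per library and no value in wild-type replicate 2. Its other wild-type values were 8.33% and 7.14%, against 90%, 81.8% and 72.7% in *smg-1*.

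The rise with the most reads was in *rps-22*, a gene of the small ribosomal subunit, with a median of 29262 junction reads. Its 176-nt exon stood at 0.99%, 0.89% and 0.89% in wild-type and at 41.3%, 42.2% and 40.7% in *smg-1* (adjusted p = 0.00025). The replicates of each group spanned less than 2 points, so this change was far beyond their spread. *melo-1*, annotated with a periphilin-1 domain, rose at its 227-nt exon from 6.96%, 6.16% and 8.20% to 48.6%, 37.6% and 48.2% (adjusted p = 0.000967). *cgt-2*, a ceramide glucosyltransferase gene, rose at its 235-nt exon from 16.2%, 10% and 6.45% to 73.2%, 56.7% and 37.5% (adjusted p = 0.0118). The *smg-1* libraries of *cgt-2* were widely spread, and without replicate 2 its adjusted p was 0.0539.

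Further exons rose from nearly complete skipping. In *K08B12.3*, a gene for a HAD-like hydrolase, the 91-nt exon rose by 34.2 points. The 142-nt exon of the EGF-like gene *C05D12.3* rose by 26.2 points and the 113-nt exon of the zinc-finger gene *vab-23* by 21.6 points. *sur-7*, named as a suppressor of activated Ras, gained 21.5 points at a 110-nt exon, and the nucleoside-diphosphate kinase gene *W04E12.7* gained 20.4 points at a 101-nt exon. The adjusted p of these 5 exons was at most 0.00351. With a wider limit on extreme PSI values before the logit it was 0.0569 for *sur-7*. Among the 12 largest rises, 2 more had calls that depended on which libraries were used. *ugt-37*, a UDP-glucuronosyltransferase gene, rose by 38.5 points on a median of 7 reads, and *C50H2.13* rose by 30.6 points on 55.5 reads. Each kept its call without wild-type replicate 1 and lost it without any other library, with an adjusted p of up to 0.0991 and 0.103.

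**Figure D1:**
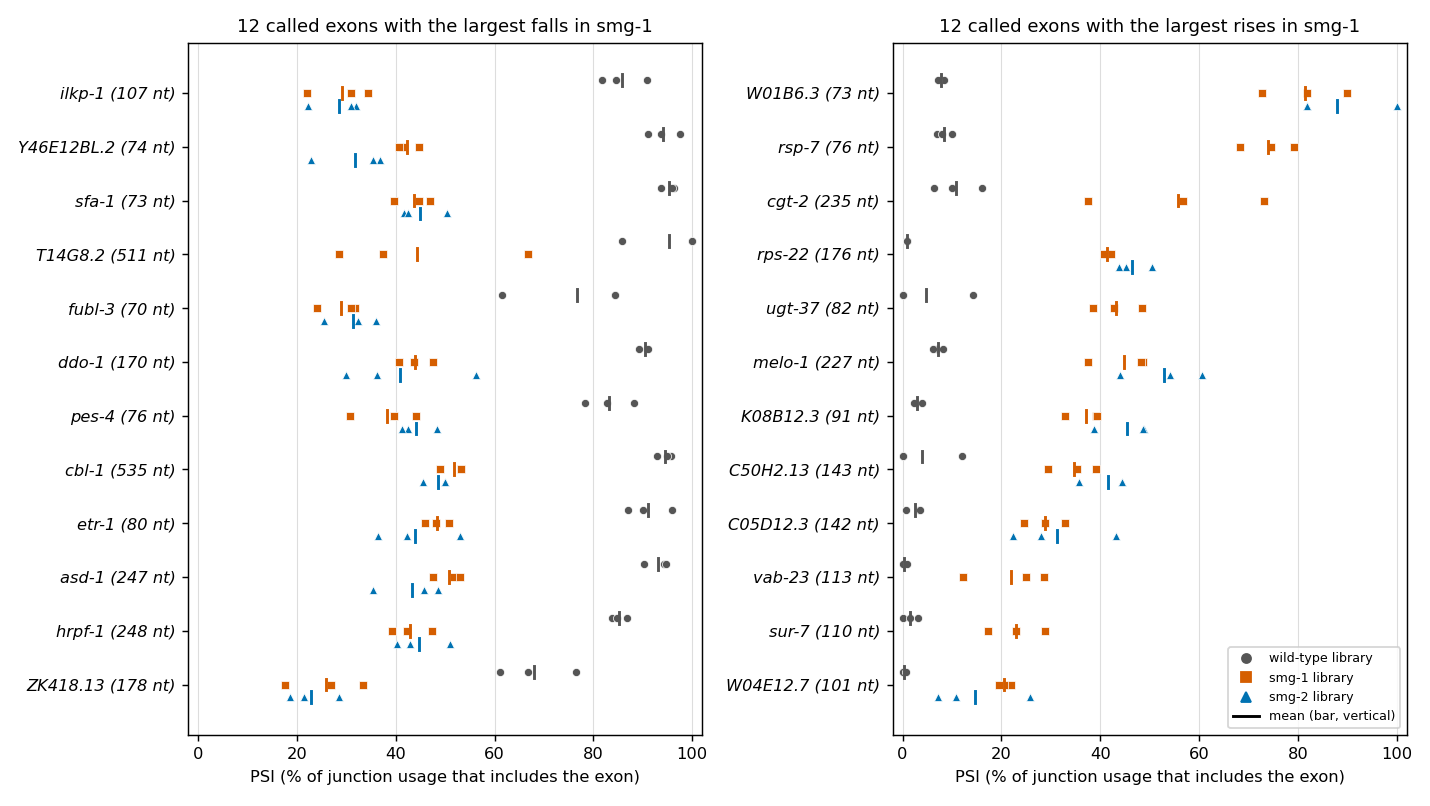
PSI of the 12 called exons that fell most (left) and the 12 that rose most (right) in *smg-1*. Each point is 1 library (grey circles wild-type, orange squares *smg-1*, blue triangles *smg-2* where it has values of its own) and each vertical bar a group mean. For every exon shown the wild-type and mutant libraries do not overlap.

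Among the exons that fell, the mutant level was often near equal inclusion and skipping. *ilkp-1*, a gene for a PPM-type protein phosphatase, fell the most. Its 107-nt exon had a PSI of 84.6%, 90.9% and 81.8% in wild-type and 21.95%, 34.3% and 30.8% in *smg-1*, a fall of 56.8 points (adjusted p = 0.00145). The 74-nt exon of *Y46E12BL.2*, related to the ribosomal RNA processing factor RRP12, had values of 93.6%, 91.1% and 97.6% in wild-type. In *smg-1* these were 44.7%, 41.6% and 40.7% (adjusted p = 0.00177). *ddo-1*, a D-aspartate oxidase gene, went from 89.2%, 90.9% and 91.0% to 43.6%, 47.6% and 40.7% at a 170-nt exon (adjusted p = 0.000714). *cbl-1*, which encodes a cystathionine gamma-lyase, fell by 42.7 points at a 535-nt exon. *ZK418.13* started lower and fell from a mean of 68.1% to 25.9% at a 178-nt exon. The F-box gene *T14G8.2* fell by 50.99 points at a 511-nt exon on a median of 7 reads. Its call was lost without wild-type replicate 1 and without each *smg-1* replicate (adjusted p up to 0.0869).

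Genes of RNA-binding proteins and splicing factors made up 14 of the 288 exons, and 9 of the 14 were called, where 59 of all 287 frame-shifting exons over 60 nt (20.6%) and 12.8% of all exons were. In 8 the exon fell and in 1, *rsp-7*, it rose. The list was chosen with earlier results of these data known, and *pes-4* and *cpsf-1* were placed by their annotated products. The median change of the 14 was -24.4 points, against -4.20 points over all frame-shifting exons over 60 nt. *sfa-1*, the worm branch-point binding protein, had PSI values of 96.3%, 95.9% and 93.7% in wild-type at its 73-nt exon. In *smg-1* it had 44.8%, 46.8% and 39.6%, a fall of 51.5 points (adjusted p = 0.000510). *fubl-3*, a gene of the KH-domain family of FUSE-binding proteins, fell at its 70-nt exon from 84.4%, 84.4% and 61.4% to 31.7%, 31.0% and 24.0% (adjusted p = 0.00902). Wild-type replicate 3 was the lowest of its group. Without *smg-1* replicate 3 the adjusted p of *fubl-3* was 0.0501.

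Called exons in genes of the RBFOX, CELF and hnRNP families all fell. *asd-1*, a worm RBFOX gene that regulates muscle splicing, fell at its 247-nt exon from 94.2%, 94.6% and 90.2% to 47.5%, 51.9% and 53.0% (adjusted p = 0.000967). *etr-1*, a CELF-family gene, fell at its 80-nt exon from 86.99%, 95.9% and 90.1% to 45.9%, 48.2% and 50.8% (adjusted p = 0.00381). The exons of *hrpf-1* (hnRNP F/H family, 248 nt) and *hrpr-1* (hnRNP R family, 136 nt) fell by 42.2 and 33.8 points. *hrpf-2*, the second hnRNP F/H gene, was almost fully included in wild-type at 99.5%, 99.3% and 99.3% and fell to 84.7%, 85.9% and 82.5% at its 145-nt exon. *pes-4*, annotated with a KH domain, fell from 78.2%, 88.2% and 82.8% to 44.1%, 39.7% and 30.7% at a 76-nt exon.

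The other 5 genes of the list were not called in *smg-1*. Exons of *fox-1* (196 nt) and *cpsf-1* (152 nt) changed by -10.4 and -5.76 points, and that of *larp-5* (188 nt) by -7.10 points. *tiar-1*, a TIA-1 family gene, went from 1.26%, 0.34% and 0.44% to 11.1%, 8.49% and 10.8% at its 64-nt exon. Its adjusted p was 0.000917, but its change of 9.45 points fell short of 10. *ncbp-2*, a subunit of the nuclear cap-binding complex, had wild-type values of 28.6%, 100% and 0% on a median of 19 reads, so its change could not be measured at this depth.

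In the other gene groups, assigned mainly by gene name, the called exons were few. Their shares are to be read against the same 20.6% and 12.8%. Transcription factor genes had 11 of the exons, of which 3 fell: *ztf-4* (136 nt, -22.6 points), *nhr-79* (65 nt, -18.01 points) and the bZIP gene *zip-3* (173 nt, -10.8 points). The call of *nhr-79* held without wild-type replicate 2 and was lost without any other library, with an adjusted p of up to 0.158. The list of ion channel and transporter genes leaves out *W01B6.3*, which is described above as a predicted transporter and rose. Among the 10 exons in that list, those of the potassium channel gene *twk-46* (202 nt) and the bestrophin gene *best-6* (97 nt) rose, by 14.9 and 18.7 points. They rest on medians of 29 and 28 reads. The call of *twk-46* was lost without *smg-1* replicate 2 or 3 (adjusted p up to 0.0526), and that of *best-6* without wild-type replicate 3 or any *smg-1* replicate (up to 0.146). *snf-6*, an acetylcholine transporter gene, and the potassium channel gene *egl-36* changed by -21.0 and -22.1 points without passing the test (adjusted p = 0.0641 and 0.290). Of 14 exons in signalling genes only that of *ilkp-1* was called. None of 3 exons in muscle genes was called. The single ribosomal protein exon was that of *rps-22*.

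Exons of both remainders changed. With a remainder of 1 nt, 13 exons rose and 20 fell of 151 tested. With a remainder of 2 nt, 8 rose and 18 fell of 136. The median change was -3.23 and -4.45 points. By length, 19 of 87 exons of 61-100 nt were called, 26 of 126 of up to 200 nt and 14 of 74 longer ones. For comparison, 21 of 302 cassette exons over 60 nt whose length is a multiple of 3 were called, with 17 that rose and 4 that fell, and their median change was 0.73 points. Of 37 frame-shifting exons of 60 nt or less, 15 were called. Just inside the length limit were exons of *linc-76* (61 nt, 16.4% to 11.4%) and of an unnamed gene (62 nt, 96.3% to 89.1%), and just outside it those of *Y47G6A.19* (59 nt, 8.64% to 5.43%) and *zipt-2.2* (58 nt, 4.48% to 38.5%).

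Exons were grouped by the stop codon predicted for each isoform, and the groups differed in the direction of their change. For 238 of the 288 exons an annotated coding transcript could carry both isoforms with the exon in its coding sequence. Of the rest, 6 lay before the start codon, 1 after the stop codon, and 43 could not be placed in such a transcript. A stop was taken as early when it lay 55 nt or more before the last exon junction complex of the isoform, taken to sit 25 nt before its final junction. The skipped isoform alone had an early stop for 112 exons, the included isoform alone for 61, both for 2 and neither for 63.

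Where skipping gave the early stop, inclusion fell. In *smg-1* 107 of these 112 exons had a lower mean PSI than in wild-type, 28 were called as fallen and none as risen. Their median change was -7.96 points. Where inclusion gave the early stop, the change went the other way: 54 of 61 exons had a higher mean PSI. Of these 61, 18 were called as risen and none as fallen, with a median change of 7.11 points. Of the 112, however, 83 had a wild-type PSI over 90% and could not rise by more than 10 points. Of the 61, 48 were under 10% and could not fall by that much. For these exons a call in the opposite direction was not possible. The 63 exons with no early stop in either isoform were split, 22 higher and 41 lower, 3 called as risen and 7 as fallen, with a median of -3.26 points. Within 5-95% wild-type PSI, 46 of 51 exons with the early stop on skipping were lower and 18 of 25 with the early stop on inclusion were higher. Either direction was possible there, but an exon near 5% or 95% had little room to move further outward. Of the 50 without an early stop in that range, 20 were higher and 30 lower. The 5 with the early stop on skipping that were higher belong to *marc-4*, *egl-9*, *F11A10.6*, *F31F4.1* and *oac-50*, and none of them was called. The 7 with the early stop on inclusion that were lower belong to *tnt-3*, *kin-1*, *rpn-6.1*, *F11E6.8*, *spv-1*, *pqn-89* and *hir-1*. These are descriptions of annotated isoforms, and exons are not replicates of a condition.

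**Figure D2:**
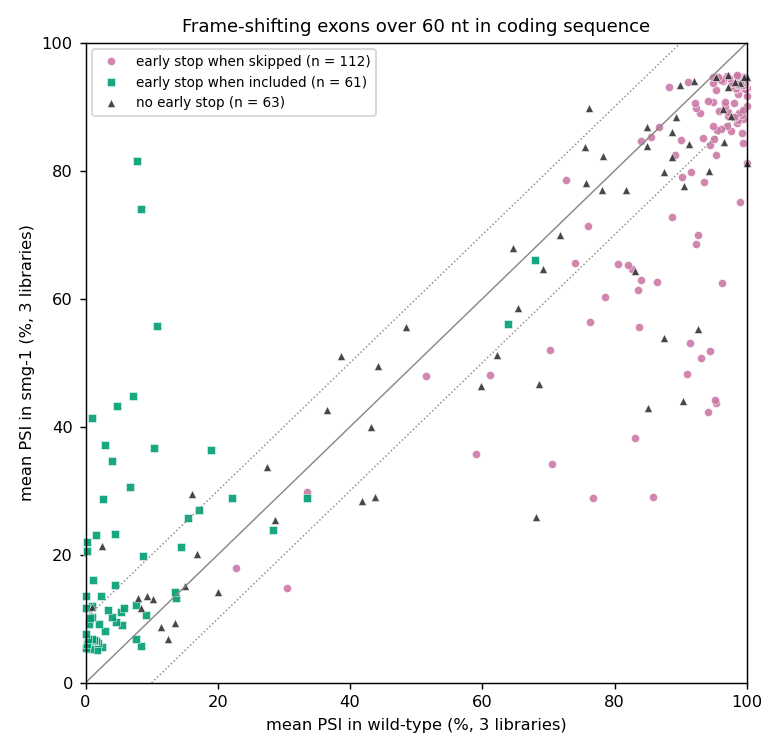
Mean PSI in *smg-1* against mean PSI in wild-type for the tested exons in coding sequence, 1 point per exon. Pink circles have an early stop only when skipped (n = 112), green squares only when included (n = 61), black triangles in neither isoform (n = 63). The solid line marks no change and the dotted lines a change of 10 points. Pink points lie mostly below the line at the right and green points above it at the left.

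Both remainders showed the same split. With a remainder of 1 nt all 56 exons with the early stop on skipping were lower in *smg-1* (median -9.97 points), and with a remainder of 2 nt 51 of 56 were (median -6.39 points). With the early stop on inclusion 34 of 39 and 20 of 22 were higher, with medians of 7.11 and 8.44 points. Within 5-95% wild-type PSI, 27 of 27 and 19 of 24 were lower with the early stop on skipping. With the early stop on inclusion 12 of 17 and 6 of 8 were higher. Near either end of that range the room to move further outward was again small. The shifted frame closed at a similar distance in both. From the skipping junction to the early stop there was a median of 30.5 nt with a remainder of 1 (n = 56) and 32 nt with a remainder of 2 (n = 56). From the start of a poison exon to its stop there was a median of 61 nt (n = 39) and 46.5 nt (n = 22).

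**Figure D3:**
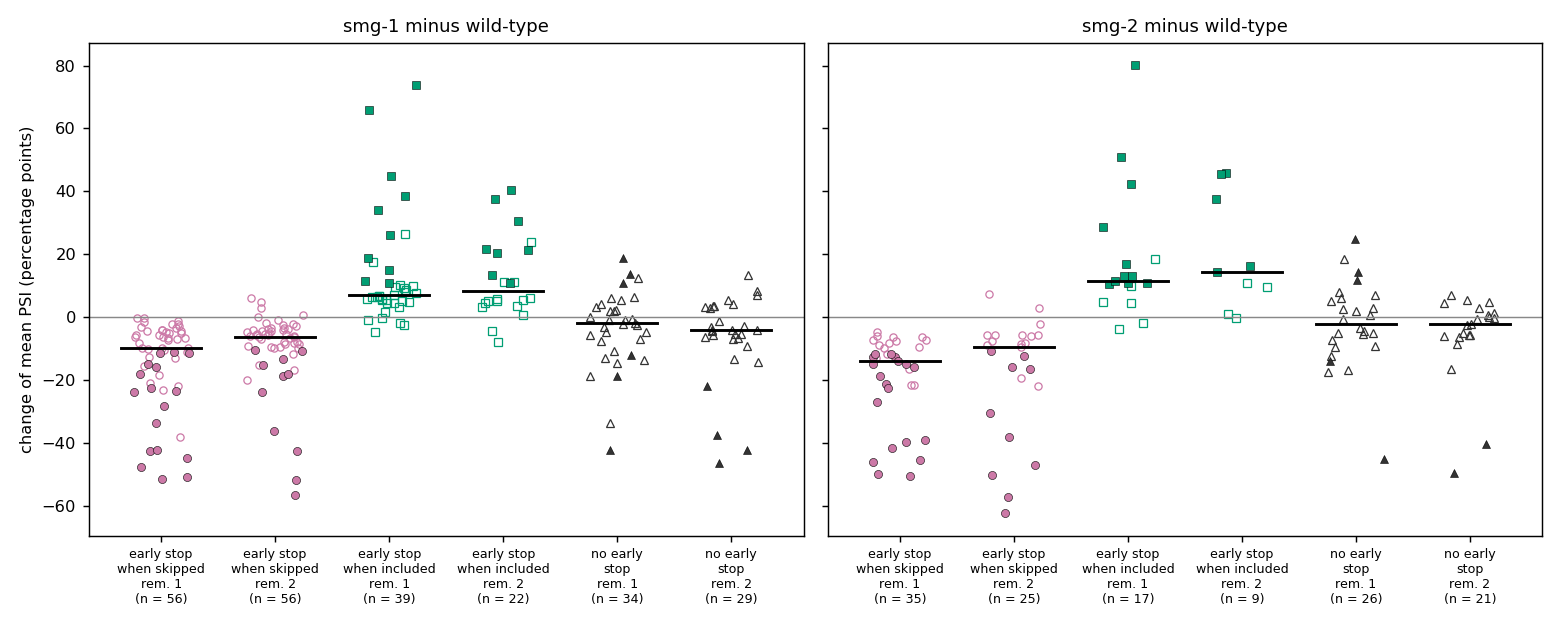
Change of mean PSI in *smg-1* (left) and *smg-2* (right) against wild-type, by predicted stop and by the remainder of the exon length divided by 3 (rem.). Each point is 1 exon, filled where called, and black bars are medians. In both mutants the called exons with an early stop on skipping lie below 0 and those with an early stop on inclusion above 0. Most exons of these classes started above 90% or below 10% PSI in wild-type, respectively, where a call in the opposite direction was not possible.

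Exons that rose mostly carried their stop codon near their start, and few are annotated. In 19 of the 21 the stop lay in the exon, and it began a median of 24 nt into it. The annotation holds the junctions of inclusion for 6 of these 21 exons and the skipping junction for all 21. Of the 38 that fell, the junctions of inclusion are annotated for 36 and the skipping junction for 11. The predicted protein of the skipped isoform had a median of 94 residues in the 35 coding exons that fell, against 432 residues when the exon was included. The stop of the skipped isoform came a median of 47 nt past the junction. Introns next to exons that rose had medians of 173 nt upstream and 133 nt downstream, against 363 nt and 354.5 nt next to exons that fell. Over all cassette exons of the table the medians were 206 nt and 273 nt.

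Splice sites of the 288 exons were regular. All 288 acceptors end in AG, and 286 donors start with GT and 2 with GC. The worm acceptor consensus TTTTCAG (7 letters, transcript strand only) directly precedes 46 of the 288 exons, or 15.97%, and 12.2% of all 785 exons whose sites were read. Of the exons that rose 2 of 21 carry it and of those that fell 5 of 38. The donor letters GTAAG follow none of the 21 exons that rose and 6 of the 38 that fell, against 16.1% of all 785 exons.

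Called exons without an early stop in either isoform numbered 10, of which 7 are penultimate exons. In all 10, the isoform that gained share had the longer predicted 3′ UTR. For *ddo-1* the skipped isoform stops 18 nt upstream of the last complex and has a 3′ UTR of 200 nt, against 49 nt when the exon is included. For *hrpf-1* the stop lies 14 nt upstream of the last complex, with a 3′ UTR of 476 nt against 163 nt. For *ZK418.13* it lies 140 nt downstream of the last complex, with a 3′ UTR of 466 nt against 35 nt. *tos-1* and the galectin gene *lec-9* rose, and their included isoforms have 3′ UTRs of 164 nt and 285 nt, against 79 nt and 80 nt when skipped. *lec-9* was deeply covered, with a median of 2754.5 reads, and rose at its 97-nt exon from 0.70%, 1.63% and 0.77% to 12.01%, 12.4% and 10.8%. A longer 3′ UTR did not mark the called exons alone. Among the 53 uncalled exons without an early stop, the isoform with the longer 3′ UTR gained share in 34, and that 3′ UTR had a median of 323 nt, against 259.5 nt in the 10 that were called.

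Among the exons of the table, intermediate wild-type levels were more frequent in penultimate exons than further upstream. Entry to the table shapes this contrast, because it holds exons from the far ends of the wild-type scale only where *smg-1* was less extreme. Whether place goes with wild-type level apart from this limit was not tested. Of the 238 coding exons, 63 are the penultimate exon and 175 lie further upstream. A wild-type PSI of 10-90% was seen in 38 of the 63 penultimate exons (60.3%) and in 46 of the 175 others (26.3%). In *smg-1* 9 of the 63 penultimate exons (14.3%) were called and 47 of the 175 others (26.9%), against 12.8% of all cassette exons tested. No early stop was predicted for either isoform in 53 of the 63, and for the other 10 the included isoform had one. Of the 175 others, 112 had an early stop only when skipped and 51 only when included.

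**Figure D4:**
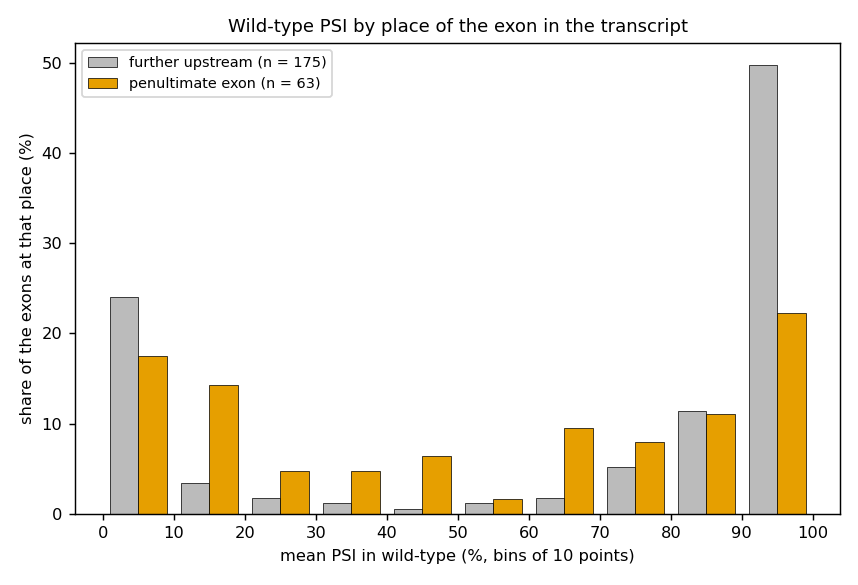
Distribution of mean wild-type PSI for penultimate exons (orange, n = 63) and exons further upstream (grey, n = 175), as the percentage of exons in each bin of 10 points. Exons further upstream gather at the 2 ends of the scale, and penultimate exons are spread over it. Exons at the far ends are in the table only where their *smg-1* level was less extreme, which shapes this contrast.

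Several deeply read exons at intermediate levels were not called. Those described were chosen for a change of 10 points or less. Over all 287 exons tested in *smg-1* the median absolute change was 7.03 points. Of the exons not called, 72 had a wild-type PSI of 10-90% and a change of 10 points or less. Of these, 29 had no early stop in either isoform and 28 were penultimate exons. *zer-1*, which encodes a substrate receptor of a ubiquitin ligase, included its 107-nt exon at 47.9%, 42.2% and 55.3% in wild-type and at 57.3%, 56.6% and 52.9% in *smg-1* (adjusted p = 0.505). The groups overlapped, and the proteins of its isoforms would have 860 and 895 residues. *mbk-2*, a DYRK-family kinase gene, had 37.9%, 18.4% and 26.2% in wild-type and 30.2%, 34.8% and 36.3% in *smg-1* at a 76-nt exon. *dnj-10*, a DnaJ chaperone gene, had 40.9%, 28.9% and 39.7% and then 43.03%, 41.4% and 43.6% at a 115-nt exon, where the groups did not overlap but the change missed the test (adjusted p = 0.551). The 335-nt exon of the myotubularin gene *mtm-3* had 4.69%, 24.4% and 5.07% in wild-type and 4.77%, 8.56% and 12.7% in *smg-1*, with the 1 high wild-type library setting the mean. The 164-nt exon of the pseudogene WBGene00014821 moved from 56.6% to 63.6%.

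**Figure D5:**
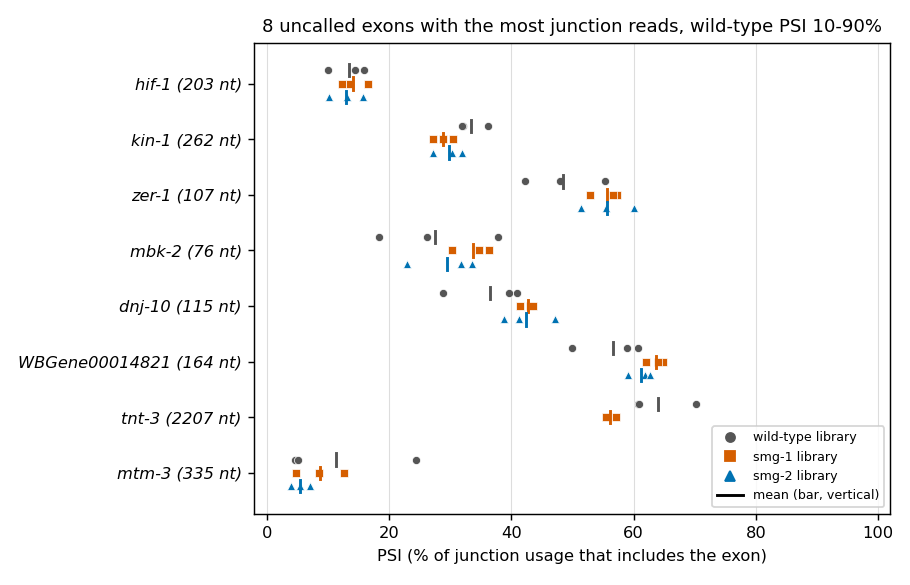
PSI of the 8 uncalled exons with the most junction reads among those with a wild-type PSI of 10-90%. Points are libraries (grey circles wild-type, orange squares *smg-1*, blue triangles *smg-2*) and vertical bars group means. Group means differ by 7.88 points or less between wild-type and *smg-1*, and for 4 of the 8 exons the libraries overlap.

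Some exons had a predicted early stop in an isoform that was common in wild-type. The isoform with the early stop made up more than 25% of junction usage in wild-type for 14 exons, of which 2 were called, those of the N-acetylglucosamine kinase gene *W06B4.2* and of *T10B10.4*. Without any 1 of the 6 libraries the call of *T10B10.4* was lost, with an adjusted p of up to 0.146. Below that share, *hif-1*, the hypoxia-inducible transcription factor, showed no measurable shift on a median of 1062.5 reads. Its 203-nt exon stood at 14.5%, 15.9% and 9.98% in wild-type and at 13.7%, 12.4% and 16.5% in *smg-1* (adjusted p = 0.892), although the included isoform has its stop 172 nt upstream of the last complex. *kin-1*, the catalytic subunit of protein kinase A, had 36.2%, 32.2% and 31.9% and then 27.2%, 30.4% and 28.8% at a 262-nt exon, the stop 63 nt upstream of the last complex. *par-3*, a cell polarity scaffold, mostly skipped its 173-nt exon, at 18.7%, 13.1% and 36.7% in wild-type and 24.3%, 11.9% and 17.5% in *smg-1*. Its skipped isoform has its stop 101 nt upstream of the last complex.

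The longest single-gene events were not called. The 2207-nt event of the troponin T gene *tnt-3* changed from 60.8%, 70.2% and 60.8% to 57.2%, 55.5% and 55.5% without passing the test (adjusted p = 0.410). The 1555-nt event of the Dishevelled gene *dsh-1* went from 22.2% to 28.8%. An event of 75904 nt spans many genes and was not taken as an exon of any of them. The palmitoyltransferase gene *dhhc-4* had 63.9%, 65.7% and 66.7% in wild-type and 56.4%, 62.1% and 57.1% in *smg-1* at a 254-nt penultimate exon (adjusted p = 0.431).

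Over the 173 exons with an early stop in 1 isoform, that isoform held a median of 4.40% of junction usage in wild-type and 12.6% in *smg-1*, and its share was higher in *smg-1* for 161. As 97 of these had a share under 5% in wild-type, from which the table admits only rises, the 76 exons with a wild-type PSI of 5-95% were also taken alone. Their medians were 11.6% and 28.8%, and the share was higher in *smg-1* for 64. Of the 127 that were not called, 106 changed by 10 points or less, and 40 of these 106 had an adjusted p under 0.05. Coverage of called and uncalled exons was alike, with medians of 100.8 and 112 junction reads.

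In *smg-2*, compared with the same wild-type libraries, more exons again fell than rose. The *smg-2* table gives values of its own for 150 of the 288 exons. Of the others 57 repeat the *smg-1* values and 81 are not in that table, and these 138 were not used. Called were 54 of 150, against 15.1% of all 498 exons tested. Of these 19 rose, where 6.83% of all exons rose, and 35 fell, where 8.23% of all exons fell. In all 54 the libraries of the 2 groups did not overlap, as in 81 of the 150 exons tested and 29.3% of all exons. Of the 100 exons with a wild-type PSI of 5-95%, 27 were called, 6 that rose and 21 that fell. Over all cassette exons in that range, 32 of 419 were called, 8 that rose and 24 that fell. The median change was -5.65 points, against -0.13 points over all exons. With the early stop on skipping 58 of 60 exons were lower in *smg-2* (29 called as fallen, median -12.7 points), and with the early stop on inclusion 23 of 26 were higher (16 called as risen, median 12.3 points). Within 5-95% wild-type PSI, 32 of 34 were lower and 8 of 11 higher. Of 47 exons with no early stop 19 were higher and 28 lower, and within that range 18 and 21.

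Several exons with large changes in *smg-1* have values of their own in *smg-2*. *W01B6.3* stood at 81.8%, 81.8% and 100%, *rps-22* at 45.2%, 50.6% and 43.8%, and *melo-1* at 54.04%, 43.9% and 60.5%. *sfa-1* stood at 50.4%, 41.6% and 42.4%, *fubl-3* 32.4%, 36.1% and 25.5%, and *asd-1* 45.7%, 48.4% and 35.5%. The strongest fall was in *Y46E12BL.2*, at 36.9%, 35.4% and 22.8%, or 62.4 points below wild-type. Without wild-type replicate 1 the adjusted p was 0.108 for *W01B6.3* and 0.0591 for *fubl-3*, and without wild-type replicate 3 it was 0.0996 for *W01B6.3*.

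Differences between the 2 mutants did not pass the test. Compared with each other directly, 0 of the 150 exons were called (0% of all 498 exons), 11 had an unadjusted p under 0.05, and the lowest adjusted p was 0.366. edgeR called 1. The mutant means were over 10 points apart in 17 exons. Some exons were called in *smg-2* and not in *smg-1*. That of *sav-1*, the worm Salvador homolog, rose by 50.9 points in *smg-2*. The 82-nt exon had 7.29%, 21.4% and 2.13% in wild-type, 38.4%, 38.1% and 33.5% in *smg-1* and 52.7%, 67.2% and 63.6% in *smg-2*. Its call in *smg-2* was lost without wild-type replicate 1, *smg-2* replicate 2 or *smg-2* replicate 3 (adjusted p up to 0.070). *B0244.10* fell by 50.1 points at a 173-nt exon, from 76.9%, 87.5% and 81.8% in wild-type to 37.5%, 33.3% and 25% in *smg-2* (adjusted p = 0.00225), with 60.7%, 75% and 60% in *smg-1* (adjusted p = 0.0989). It had a median of 8.5 reads and kept its call in *smg-2* whichever library was left out. For both *sav-1* and *B0244.10* the direct comparison of the mutants gave an adjusted p of 0.366. Others had passed the test in *smg-1* with changes under 10 points and exceeded 10 points in *smg-2*. *tiar-1* changed by 9.45 and 12.9 points, the purine synthesis gene *paic-1* (118 nt) by 9.27 and 12.97 points, *cpsf-1* by -5.76 and -12.3 points, and the peroxisomal protease gene *lonp-2* (245 nt) by -6.43 and -16.6 points.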

How the data were processed

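RNA-Seq junction usage was analysed in 9 libraries (wild-type, *smg-1* and *smg-2*, n = 3). The authors aligned reads with STAR and quantified splicing with JUM, requiring at least 5 junction reads per event. They deposited, per library, the usage of the skipping junction as a fraction and its read count. PSI was 1 minus that fraction. Columns of the authors' own PSI changes, group means and p-values were not used. Dividing count by usage gave whole totals (tolerance 0.0001) in 100% of the cells only with the wild-type and mutant count labels exchanged. As labelled it was 27.6% and 27.0%. Counts labelled mutant were equal in both tables for 620 of 620 shared exons, as only wild-type's can be, so the counts were exchanged and the usage labels kept. Junction reads over the exons tested summed to 38513-85243 in wild-type and 73862-148586 in *smg-1*, and in the *smg-2* comparison to 30487-62996 and 24449-59107. Their number per exon limits precision: the fewest in 1 library was 1.

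PSI was limited to 1-99%, logit-transformed and tested with limma 3.58.1 (R 4.3.3) over all eligible exons, with Benjamini-Hochberg adjustment. The *smg-1* fit omitted 1 exon whose start follows its end and 3 that lacked 2 values per group, among them the 86-nt exon of *emre-1*. Of 620 *smg-2* rows, 122 repeating *smg-1* values were left out. The alternative edgeR 4.0.16 tested inclusion against skipping reads. Both tools were tested on simulated data. All main fits were unpaired, and replicate number as a block was only an alternative setting. All 3 same-numbered deviations correlated above 0.1 only for *smg-1* with *smg-2* (r of 0.125, 0.106 and 0.101). That was a narrow margin, since libraries with different numbers reached 0.116. Isoforms were built from the Ensembl WBcel235 annotation on the RefSeq WBcel235 genome, from which the printed sequences were read. Named exons are the 12 largest called rises and falls, the 8 deepest uncalled at 10-90% wild-type PSI, and exons of genes the study names or in 6 gene lists. Other named exons were picked with their values in view. The lists go by gene name, and *pes-4*, *cpsf-1* and *sma-5* were moved by their annotated products. The members and lists were chosen with earlier results of these data known.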

Additional observations from a re-analysis of the deposited data

How the results depend on the processing

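Of the 59 exons called in *smg-1* and the 54 in *smg-2*, 36 and 32 stayed called whichever library was left out. The counts ranged over 44-68 and 39-52 with 1 library left out. A threshold of 5 points gave 100 in *smg-1*, and one of 20 points gave 35 and 29. Keeping exons whose mean PSI lay within 5-95% in each group gave 22 and 18. Weighting inclusion reads by 0.5 moved the split in *smg-1* to 15 that rose and 63 that fell, and in *smg-2* to 9 and 41. edgeR called 56 of 211 exons in *smg-1*, 48 of 125 in *smg-2* and 1 of 144 between the mutants, where limma called 0. With replicate number as a block the counts were 47, 43 and 0. Same-numbered deviations from wild-type had r of 0.085, 0.028 and -0.049 in *smg-1* and -0.009, 0.119 and 0.157 in *smg-2*, not all above 0.1. The main fits assumed no pairing in any comparison. Of the 56 called coding exons, 46 had the early stop in the isoform that gained share, 43 when every fitting transcript had to show the same pattern, and 47 when any stop upstream of the last complex counted as early, a limit added after seeing the data. The median change of PSI kept its sign in every setting run on it. Exons with few junction reads limit the precision.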
